A study of Mus musculus with 2 samples.

Results

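The Wnt ligands and receptors described here are 10 genes of cartilage signalling, namely the ligand genes *Wnt4*, *Wnt5a*, *Wnt5b*, *Wnt9a* and *Wnt11* and the receptor genes *Fzd1*, *Fzd2*, *Fzd7*, *Ror1* and *Ror2*. They were chosen by name, with earlier results of these data known. Every probe set that the platform annotation assigns to no other gene was taken, which gave 23 probe sets. All 10 were among the 18193 genes named on the array. A probe set is a group of short probes against a stretch of a transcript, and several can belong to the same gene. Femoral cartilage from *Tric-b*-knockout embryos (strain label C57BL/6J, 129Sv, Tric-b-KO) at E17.5 was divided into a section enriched with round chondrocytes and a section of columnar and hypertrophic chondrocytes. These are called the round zone and the columnar zone here. For each zone 1 Affymetrix array was hybridized, with RNA mixed from 3 preparations. Both specimens are labelled as knockouts of *Tric-b* (*Tmem38b*), the gene of an ER cation channel, and wild-type cartilage was not analysed here, so every difference below is between zones of knockout cartilage. With 1 array per zone, no difference has a replicate check, a test or a standard error.

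Wnt proteins are secreted, lipid-modified signals that bind Frizzled receptors on neighbouring cells. When the co-receptors LRP5 or LRP6 take part, the signal stabilizes β-catenin and activates TCF/LEF transcription factors. Other Wnt proteins, WNT5A foremost, act without β-catenin through the receptor tyrosine kinases ROR1 and ROR2 and the planar cell polarity proteins, which orient cells within a tissue. In the growth plate this noncanonical route is known for its part in arranging flat chondrocytes into columns, and WNT9A and WNT4 are known from developing joints.

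Signals were compared on the log2 scale as columnar zone minus round zone, and a difference of 2-fold or more was counted. Signals at or under a floor of 65.9, the 40th percentile of both arrays together, were not ordered. When only 1 of the 2 signals lay above the floor, the other was set to the floor and the difference is a bound. The scale of differences is set by the spread between probe sets of the same gene, which as a log2 difference had a pooled SD of 0.34 (5446 genes), and which says nothing of how animals or preparations vary. The chondrocyte label fitted both specimens. *Col2a1*, the main collagen gene of cartilage, gave 49311 in the round zone and 50518 in the columnar zone, and none of 7 chondrocyte genes differed by 2-fold. Each of the 7 compared genes of columnar and prehypertrophic cells lay past 2-fold on the columnar side, among them *Ihh*, encoding Indian hedgehog, at 87.8 and 3900. Of 4 compared hypertrophic genes, 3 did so, among them *Col10a1*, the collagen gene of hypertrophic cells, at 55.2 and 25421. The remaining one, *Vegfa*, was higher in the round zone, at 3095 and 1877, by less than 2-fold. *Mmp13* was under the floor in both. Of 6 compared genes of round or resting cells, *Grem1*, *Gas1*, *Ucma* and *Clu* lay past 2-fold on the round side. The targeted gene *Tmem38b* gave signals of 69.4 to 323 in the round zone over its 4 probe sets and of 43.1 to 304 in the other, so all 4 were above the floor in the round zone. Where these probe sets lie relative to the deletion is unknown here, and they do not check the genotype.

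The compared ligands lay on the columnar side and the receptors on both sides. Of the 5 ligand genes, 4 exceeded 2-fold on the columnar side and *Wnt9a* lay under the floor in both. In sections of tissue, more cells of a type cannot be told apart from more RNA per cell. Of the 5 receptor genes, *Fzd1* was at least 2-fold higher in the columnar zone, *Fzd2* and *Ror1* were at least 2-fold higher in the round zone, and *Fzd7* and *Ror2* differed by less. A gene is represented here by the probe set whose log2 signal, averaged over both arrays, was highest. Of all 12714 compared genes, 4.26% lay past 2-fold on the columnar side and 6.17% on the round side.

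Counted by probe set, 16 of the 23 had signals above the floor in both arrays, 4 in a single array and 3 in neither. Of the 20 compared, 11 lay past 2-fold on the columnar side, against 3.58% of all 29258 compared probe sets, and 5 in the round zone, against 6.24%. Of the 16 above the floor in both arrays, these numbers were 9 and 4. The matching share over all such probe sets is not given here. At 3-fold, 7 probe sets and 3 genes of the members were higher in the columnar zone, where 1.32% of probe sets and 1.66% of genes were so in all, and 1 probe set and 0 genes in the round zone, where the shares were 1.96% and 2.07%. All probe sets 2-fold higher in the columnar zone belonged to *Wnt4*, *Wnt5a*, *Wnt5b*, *Wnt11* and *Fzd1*. The balance over all probe sets depended on the scaling of the arrays, since the columnar zone held 36.4% of all 2-fold calls as deposited and 48.6% after quantile normalization. That scaling shifted the differences by 0.11 at the median. The members gave 11 and 4 under it, where 4.49% of all compared probe sets lay past 2-fold on the columnar side and 4.75% on the round side.

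Different probe sets of the same gene lay on the same side. This held for all 8 member genes with more than 1 compared probe set, and for 59.5% of the 6291 such genes on the array. Both numbers include bounds, whose side is set by the array in which the signal passed the floor. For *Fzd7* and *Ror1*, 1 probe set each was above the floor in both arrays, so their bounds do not show agreement. All compared probe sets lay past 2-fold on the columnar side for 4 member genes, *Wnt4*, *Wnt5a*, *Wnt5b* and *Fzd1*, as for 1.92% of the 6291, and at least 2-fold higher in the round zone for *Fzd2* alone, as for 2.42%. Of the 4 probe sets of *Wnt5a*, 2 were above the floor in both arrays and 2 were bounds.

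**Figure D1:**
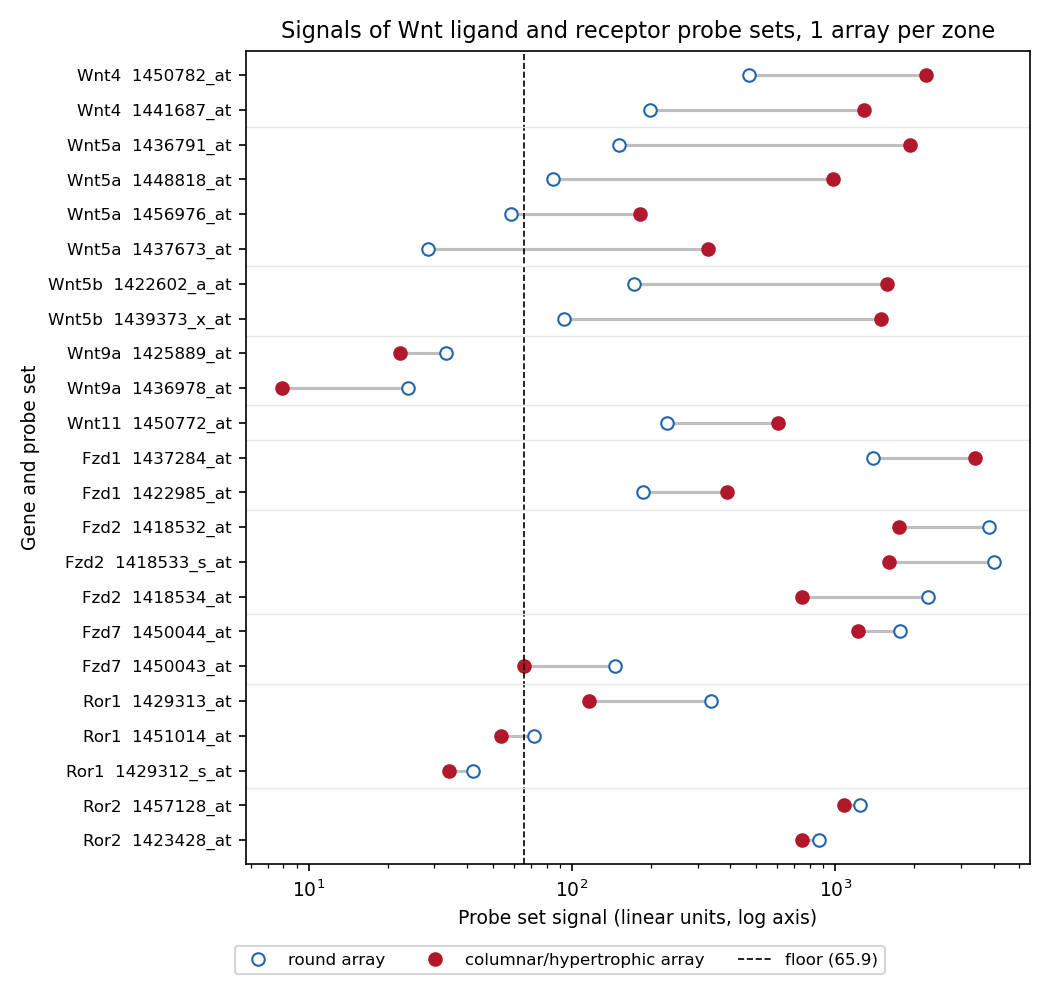
Signals of the 23 probe sets (log axis) in the round zone (open circles) and the columnar zone (filled circles), 1 array per zone, with each pair joined by a line and the floor of 65.9 dashed. The filled circle lies to the right for *Wnt4*, *Wnt5a*, *Wnt5b*, *Wnt11* and *Fzd1* and to the left for the other 5 genes, and both probe sets of *Wnt9a* lie left of the floor.

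The promoters of the members that differed by 2-fold are shown for the genes held in the RefSeq table (GRCm38.p6), which had entries for 8 of the 10 members and 11 starts. *Wnt5a* and *Fzd2* have no entry. Each line gives the 250 bases before the most upstream start, 5′ to 3′ on the gene's strand. Capitals mark the GC box GGGCGG, the TCF/LEF core CTTTGA and the RUNX core TGTGGT on either strand.

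Wnt4 promoter, chr4:137277385-137277634, plus strand: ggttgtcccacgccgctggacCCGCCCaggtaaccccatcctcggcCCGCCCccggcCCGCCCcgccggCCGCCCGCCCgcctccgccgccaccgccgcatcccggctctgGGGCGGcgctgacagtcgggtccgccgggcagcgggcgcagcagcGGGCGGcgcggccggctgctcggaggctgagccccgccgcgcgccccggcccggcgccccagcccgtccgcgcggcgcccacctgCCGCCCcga
Wnt5b promoter, chr6:119544348-119544597, minus strand: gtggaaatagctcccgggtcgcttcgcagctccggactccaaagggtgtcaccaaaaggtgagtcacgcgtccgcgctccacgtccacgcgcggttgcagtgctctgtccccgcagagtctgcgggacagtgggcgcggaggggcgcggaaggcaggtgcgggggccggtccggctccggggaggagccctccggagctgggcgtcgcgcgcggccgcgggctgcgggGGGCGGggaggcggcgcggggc
Wnt11 promoter, chr7:98834862-98835111, plus strand: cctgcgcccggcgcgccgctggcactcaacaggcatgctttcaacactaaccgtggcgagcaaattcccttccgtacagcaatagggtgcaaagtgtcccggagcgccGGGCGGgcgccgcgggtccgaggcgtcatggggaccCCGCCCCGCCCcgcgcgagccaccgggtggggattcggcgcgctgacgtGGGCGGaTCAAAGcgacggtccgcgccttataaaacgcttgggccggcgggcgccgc
Fzd1 promoter, chr5:4758217-4758466, minus strand: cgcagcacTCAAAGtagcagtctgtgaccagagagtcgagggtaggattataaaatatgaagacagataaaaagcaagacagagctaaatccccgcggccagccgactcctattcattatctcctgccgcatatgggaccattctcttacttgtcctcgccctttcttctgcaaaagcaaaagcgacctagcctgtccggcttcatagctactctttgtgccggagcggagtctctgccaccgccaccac
Ror1 promoter, chr4:100095541-100095790, plus strand: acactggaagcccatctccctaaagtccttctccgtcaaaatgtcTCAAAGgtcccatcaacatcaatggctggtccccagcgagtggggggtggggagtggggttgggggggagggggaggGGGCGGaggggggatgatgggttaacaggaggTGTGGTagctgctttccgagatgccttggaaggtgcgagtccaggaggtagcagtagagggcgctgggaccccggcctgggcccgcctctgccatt

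The 3 ligand promoters printed are rich in G and C, at 85.2% for *Wnt4*, 75.2% for *Wnt5b* and 70.8% for *Wnt11*, where the median of all 32851 promoters was 52.4%. They hold 44, 35 and 37 CpG dinucleotides, and the median promoter holds 6. The *Wnt4* promoter has 8 GC boxes, some of them overlapping, that of *Wnt11* has 4 and that of *Wnt5b* has 1, and 32.7% of all promoters have at least 1. High GC content was neither shared by all members on the columnar side nor particular to them, since *Fzd1*, higher in the columnar zone, had 51.2% and 0 GC boxes, and *Wnt9a*, under the floor in both arrays, had 84.4% and *Ror2*, at less than 2-fold, 73.2%. The TCF/LEF core was present once in *Wnt11*, *Fzd1* and *Ror1*, whose signals differed in opposite directions, and in 13.8% of all promoters. The RUNX core was in *Ror1* of these 5, and in 14.0% of all promoters. Over the 11 member starts, 8 windows held a GC box, 4 a TCF/LEF core and 1 a RUNX core. The other starts in the table, 2 for *Wnt5b* and 1 for *Wnt11*, were not printed and lie closer to the median, with 53.2% and 55.6% G and C and 4 and 7 CpG for *Wnt5b*, and 56.8% and 16 CpG for *Wnt11*. A match of so few letters is a description of the sequence, and the arrays do not tell which start was used.

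*Wnt5a*, encoding the main noncanonical ligand of column formation, had the largest difference of the representative probe sets. On its brightest probe set (1436791_at) the signal was 151 in the round zone and 1919 in the columnar zone, a log2 difference of 3.67 or 12.7-fold. On the next (1448818_at) it was 84.9 and 979, a log2 difference of 3.53. The other two had round signals under the floor. Probe set 1437673_at gave 28.3 and 329, at least 4.99-fold, and 1456976_at gave 58.4 and 182, at least 2.76-fold. So all 4 were higher in the columnar zone, and 0.106% of all compared probe sets lay as far in that direction as the brightest. A floor at the 60th percentile lay above the round signal of the brightest probe set and turned its log2 difference into a bound of 3.21.

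*Wnt5b*, the paralog of *Wnt5a*, known from prehypertrophic chondrocytes, had a difference of the same order. The signal of probe set 1422602_a_at was 172 in the round zone and 1571 in the columnar zone, a log2 difference of 3.19 or 9.12-fold. That of 1439373_x_at was 93.4 and 1494, 16.0-fold apart. Both were higher in the columnar zone. By Affymetrix naming, the suffix _a marks probes shared by several transcripts of a gene and the suffix _x marks probes that may also bind other sequences, so *Wnt5b* had no probe set of the plain, specific type. The log2 differences of *Wnt5b* lay on either side of those measured for *Wnt5a* above the floor, so the order of these 2 genes is not settled.

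*Wnt4*, whose protein can signal with or without β-catenin, came next. Its probe set 1450782_at had a signal of 471 in the round zone and 2209 in the columnar zone, a log2 difference of 2.23. On 1441687_at the signals were 197 and 1286, a log2 difference of 2.70. *Wnt4* was therefore 4.69-fold and 6.51-fold higher in the columnar zone, with a mean log2 difference of 2.47 ± 0.34 (SD over 2 probe sets). This is the error between probes within the same arrays.

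*Wnt11*, encoding another noncanonical ligand, had a single probe set, with signals of 230 and 607. Its log2 difference of 1.40, or 2.64-fold, was smaller than those of *Wnt4*, *Wnt5a* and *Wnt5b* by more than the pooled SD between probe sets. Of all compared probe sets, 1.75% lay as far in that direction.

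*Wnt9a*, a gene of the joint interzone, had no signal above the floor. Its probe set 1425889_at gave 33.1 in the round zone and 22.2 in the columnar zone, and 1436978_at gave 23.7 and 7.89. No order can be read from these values. Of all named genes, 30.1% were under the floor in both arrays. Other genes of the joint were present in the round zone, where *Gdf5*, encoding a growth factor of the interzone, had a signal of 949 and *Prg4*, encoding lubricin, one of 5260, and 4 of 5 compared genes of the joint list were at least 2-fold higher there.

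Genes with signals like those of the ligands in both arrays were sought among 11189 genes above the floor in both, by the distance in the plane of the 2 log2 signals. The closest to *Wnt5a* were *Unc5b* (a netrin receptor gene), *Slc35g1* and *Slc13a5* (a citrate transporter gene), with log2 differences of 3.46, 3.58 and 3.74. The closest to *Wnt5b* were *Slc35g1*, *Wnt5a* itself at a distance of 0.35, and *Prom1*. The closest to *Wnt11* were *Fah*, *Pde2a* and *Hr*, with log2 differences from 1.23 to 1.38, although another probe set of *Pde2a* lay at -0.65. Likeness over 2 arrays rests on 2 values per gene and also reflects how strongly each probe set binds.

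**Figure D2:**
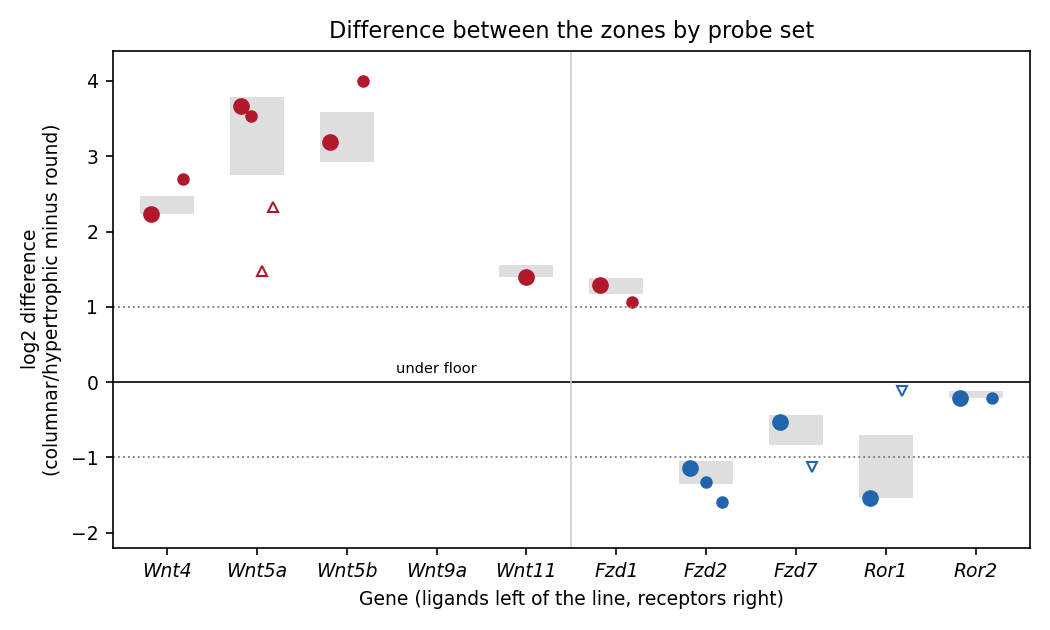
The log2 difference (columnar zone minus round zone) of each compared probe set by gene, where large symbols are the probe set that represents the gene, open triangles are bounds, grey boxes span the gene's value over all processing settings and dotted lines mark 2-fold. *Wnt5a* and *Wnt5b* reach 12.7-fold and 16.0-fold, *Fzd2* spans -1.59 to -1.14, and *Ror2* lies at -0.21 on both probe sets.

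The receptor genes showed both signs. On the representative probe sets their differences were smaller than those of *Wnt4*, *Wnt5a* and *Wnt5b*. They were not all smaller than that of *Wnt11*, at 2.64-fold, since *Ror1* was at 2.90-fold. *Fzd1* was the sole Frizzled receptor gene of the members higher in the columnar zone. Its probe set 1437284_at had a signal of 1387 in the round zone and 3385 in the columnar zone, a log2 difference of 1.29 or 2.44-fold. On 1422985_at the signals were 186 and 389, a log2 difference of 1.06. The second value is just inside the 2-fold rule.

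*Fzd2*, encoding another Frizzled receptor, had the opposite pattern on all of its 3 probe sets. The signals were 3846 and 1746 on 1418532_at, 4018 and 1602 on 1418533_s_at, and 2247 and 745 on 1418534_at, in the round and columnar zones, respectively. *Fzd2* was thus higher in the round zone by 2.20-fold to 3.01-fold, with a mean log2 difference of -1.35 ± 0.23 (SD over 3 probe sets). The differences of *Fzd1* and *Fzd2* lay on opposite sides of 0 by more than the pooled SD between probe sets.

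*Fzd7*, encoding a close relative of both, had a signal of 1761 in the round zone and 1223 in the columnar zone on its brighter probe set (1450044_at). That log2 difference of -0.53 did not reach 2-fold, and 20.1% of all compared probe sets lay as far in that direction. On the dimmer probe set (1450043_at) the signals were 145 and 65.7, the latter just under the floor, so the round zone was at least 2.19-fold higher. *Fzd7* was therefore on the round side in both, with a size that its 2 probe sets did not settle.

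*Ror1*, encoding a receptor kinase for WNT5A, had signals of 336 and 116 on probe set 1429313_at, which was 2.90-fold higher in the round zone with a log2 difference of -1.54. Its other probe sets added little, since 1451014_at gave 71.6 and 53.9, a bound of -0.12, and 1429312_s_at gave 42.1 and 34.0, both under the floor. The call for *Ror1* rests on a single probe set. At a floor of the 60th percentile it became a bound of -0.70, and over its compared probe sets the mean was -0.83.

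*Ror2*, encoding the other receptor kinase and known for its need in long-bone growth, differed least. Its probe set 1457128_at had signals of 1245 and 1076 and 1423428_at had 868 and 748. Both gave a log2 difference of -0.21, smaller than the pooled SD of 0.34 between probe sets. Of all compared probe sets, 40.3% lay as far on the round side as the first. In both zones *Ror2* was well above the floor.

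In order of the log2 difference of the representative probe set, the genes ran from *Wnt5a* and *Wnt5b* through *Wnt4*, *Wnt11* and *Fzd1* to *Ror2*, *Fzd7*, *Fzd2* and *Ror1*. The neighbours *Wnt11* and *Fzd1*, at 1.40 and 1.29, did not differ beyond the spread between probe sets, nor did *Fzd2*, whose probe sets spanned -1.59 to -1.14, and *Ror1*, at -1.54. The place of *Fzd7* was not settled, since its probe set at -0.53 lay within that spread of *Ror2* and the bound of -1.13 on the other lay beyond it, next to *Fzd2*. These are differences between zones for each gene. The levels of different genes are not on a common scale, as probe sets bind with different strength.

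**Figure D3:**
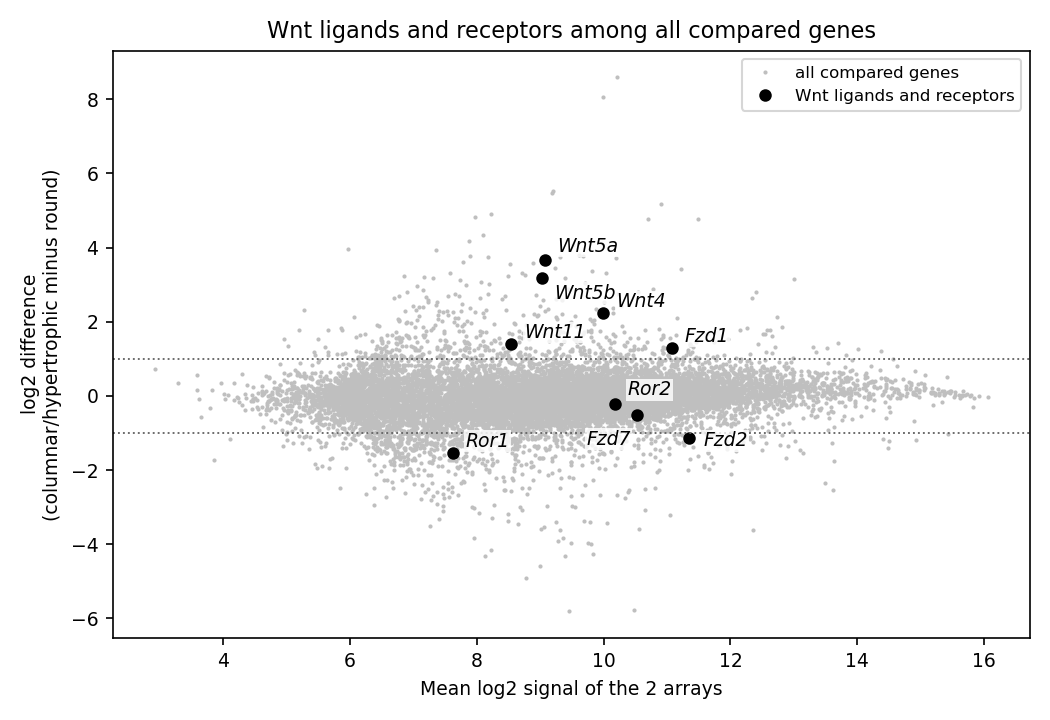
The log2 difference (columnar zone minus round zone) against the mean log2 signal of both arrays for all 12714 compared genes (grey) and the 9 compared members (black), with dotted lines at 2-fold. *Wnt5a*, *Wnt5b* and *Wnt4* lie above most genes of like signal, and *Ror2* lies within the grey cloud.

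Markers of cells that the sections may hold beside chondrocytes also differed between the arrays. Of 10 compared genes of perichondrium, tendon and fibroblasts, 6 were at least 2-fold higher in the round zone and none in the other, and the summed signal of the 12 measured genes was 84764 in the round zone and 33538 in the columnar zone. *Thy1*, and *Scx* on its brightest probe set, were under the floor in both. *Fzd2* and *Ror1* were higher in the same array as these genes. Of 6 compared osteoblast genes, 3 (*Sp7*, *Ibsp* and *Ifitm5*) lay past 2-fold on the columnar side, like the member ligands, whereas *Col1a1* was lower there and the summed signal was 1954 in the round zone and 2388 in the columnar zone. *Sp7* and *Ibsp* are also genes of prehypertrophic or hypertrophic chondrocytes. The perichondrial genes past 2-fold were *Col1a1*, *Col3a1*, *Col14a1*, *Postn*, *Dcn* and *Tnmd*, and *Lum* gave 21458 and 22176. The endothelial list had a summed signal of 541 and 423, with *Esam* past 2-fold on the round side as a bound and *Tie1* and *Tek* under the floor in both arrays, and the myeloid and osteoclast list one of 1570 and 1742, with *Ptprc*, *Acp5*, *Mmp9* and *Adgre1* under the floor in both. The skeletal muscle list summed to 964 and 1503. *Acta1* and *Tnnt3* of it lay past 2-fold on the columnar side, *Tnni2* gave 644 and 501 and *Mylpf* 114 and 146, and *Myh3*, *Myh8*, *Ckm* and *Myog* were under the floor in both arrays on their representative probe sets. Of the erythroid list, 1 gene could be compared, and the sums were 123 and 140. The part of these cells in the Wnt results was not tested.

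The remaining genes of the pathway were described through lists drawn up by function. Over 116 measured genes, 88 could be compared, of which 3 lay past 2-fold on the columnar side (3.41%, against 4.26% of all compared genes) and 12 in the round zone (13.6%, against 6.17%). Their median log2 difference was -0.13, and that of all compared genes was -0.04. Of the 12, 5 were genes of secreted inhibitors.

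Most Wnt genes outside the 5 members were not above the floor. Of 14 other ligand genes, 10 were under the floor in both arrays, among them *Wnt1*, *Wnt3a* and *Wnt10b*. The 4 compared ones were *Wnt6*, *Wnt7a*, *Wnt7b* and *Wnt10a*, with *Wnt7b* at 247 and 259, and none differed by 2-fold. Their median log2 difference was -0.44. With a floor at the 20th percentile or none, further genes of the list entered and the list median was 0.03. With a floor at the 60th only *Wnt7b* stayed, at 0.07. The median of the 4 compared member ligands was 2.71. The list median was 2.23 with the floor at the 20th percentile or without a floor, where *Wnt9a* entered. It was also 2.23 on specific probe sets only, where *Wnt5b* dropped out.

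Among 10 compared genes of other receptors and co-receptors, 3 were at least 2-fold higher in the round zone and 1 in the columnar zone. *Ptk7*, encoding a receptor-like protein of planar cell polarity, had signals of 352 and 1577 on its single probe set, a log2 difference of 2.16. *Fzd9* had signals of 2356 and 1169, a log2 difference of -1.01, *Fzd6* of 597 and 283, a log2 difference of -1.08, and *Fzd5* of 137 and 61.4, a bound of -1.06. All 3 are at the edge of the 2-fold rule, and the 3 probe sets of *Fzd6* spanned -1.08 to -0.22. *Ryk*, encoding an atypical Wnt receptor, and *Lrp6* had log2 differences of -0.15 and -0.20.

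Genes of the cells sending and receiving the signal were counted in the same way. Of all compared genes, 4.26% lay past 2-fold on the columnar side and 6.17% on the round side. The counts below come from short lists and cannot be set apart from these shares. Of 6 compared genes of Wnt acylation and secretion, none reached 2-fold, and *Wls*, encoding the carrier of Wnt proteins to the cell surface, had signals of 1834 and 1043, a log2 difference of -0.81. Of 14 compared planar cell polarity genes, 1 reached 2-fold, *Prickle2* with signals of 337 and 125, and the median log2 difference was -0.06. *Vangl2*, a core component of that system, had signals of 228 and 377 on its brightest probe set, a log2 difference of 0.73, but its 3 probe sets spanned -0.38 to 0.73. *Prickle1* was bright in both arrays, at 5304 and 5156. Of 13 compared genes of the Wnt calcium branch, 1 reached 2-fold, *Nfatc4*, encoding a calcineurin-regulated transcription factor, with signals of 694 and 215 and differences from -1.69 to -0.47 over its 3 compared probe sets.

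The β-catenin branch gave values on both sides, and its counts are to be read beside the same shares of all compared genes. Of 20 compared genes of β-catenin signal transduction, 1 reached 2-fold, *Bcl9*, encoding a co-activator of β-catenin, with signals of 930 and 407, a log2 difference of -1.19. The 2 probe sets of *Bcl9* spanned -1.19 to -0.79. *Ctnnb1*, encoding β-catenin, had signals of 23189 and 26363. Of 9 compared target and feedback genes, *Myc* was higher in the columnar zone, with signals of 1239 and 3101. *Apcdd1*, encoding a membrane inhibitor of Wnt signalling, was higher in the round zone, with signals of 906 and 355 on its brightest probe set. The 5 compared probe sets of *Apcdd1* spanned -1.92 to -0.62, so not all reached 2-fold. The widely used target *Axin2* had signals of 174 and 305, a log2 difference of 0.82. The median over this list was 0.35. *Lgr5* and *Rnf43*, also targets, were under the floor in both arrays. Of 4 compared genes of R-spondins and receptor turnover, *Rspo3*, encoding a secreted enhancer of Wnt signalling, was at least 2-fold higher in the columnar zone, with signals of 127 and 630.

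Of 10 compared genes listed as secreted inhibitors, 5 were at least 2-fold higher in the round zone and none in the columnar zone. Of all compared genes, 6.17% and 4.26% were so. The 5 were *Wif1* (2810 and 181), *Sfrp2* (1805 and 149), *Dkk3* (268 and 68.1), *Sfrp1* (3034 and 1271) and *Frzb* (8072 and 3430). The call for *Sfrp1* depends on the probe set, as its 5 probe sets spanned -1.49 to -0.18. These 5 genes lay on the side opposite to the member ligands *Wnt4*, *Wnt5a*, *Wnt5b* and *Wnt11*. On the same side as the ligands, at less than 2-fold, were 4 others, *Notum* at 0.63, *Kremen1* at 0.55, *Sfrp4* at 0.43 and *Sfrp5* at 0.08, and *Sostdc1* lay at -0.62. *Kremen1* was counted in this list although it encodes a membrane protein. The probe sets of *Kremen1* spanned -0.32 to 0.55 and those of *Sfrp5* -0.10 to 0.08, so the side of these genes is not settled. *Sfrp2* and *Wif1* lay at log2 differences of -3.60 and -3.96, the size of the *Wnt5a* difference with the sign turned.

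**Figure D4:**
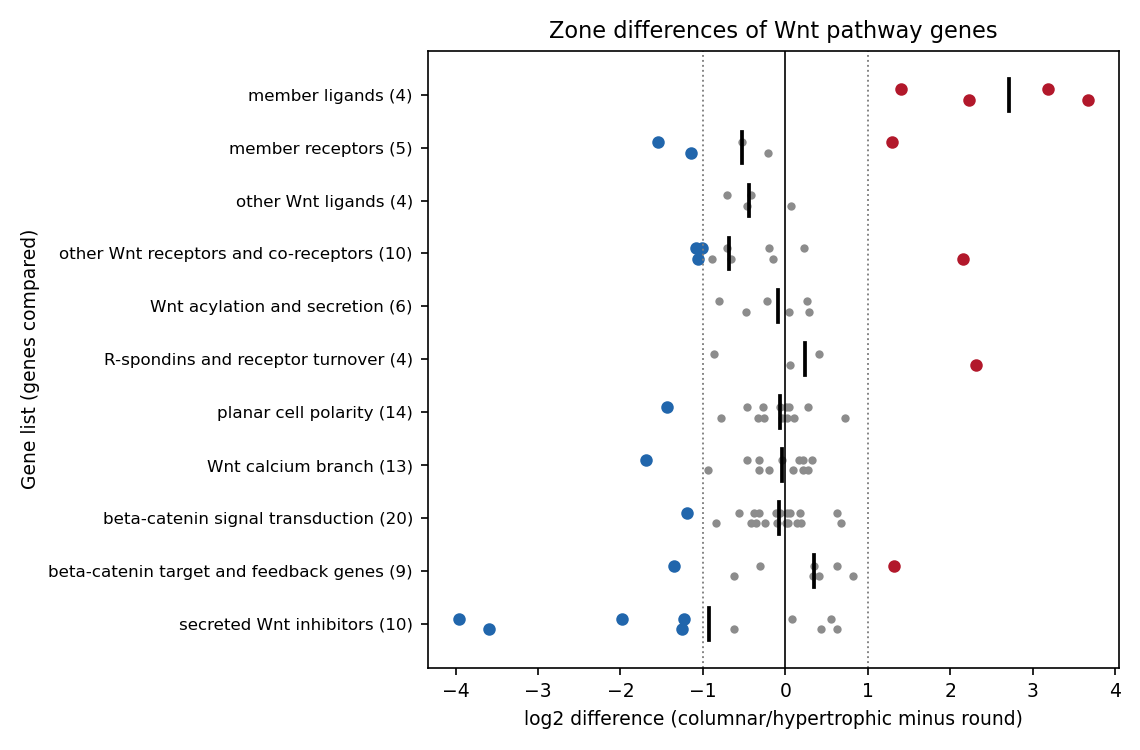
The log2 difference (columnar zone minus round zone) of each compared gene (points) by list, with the number compared in brackets, the list's median as a black bar and genes at or past 2-fold (dotted lines) in colour. The member ligands have a median of 2.71 and the secreted inhibitors extend to -3.96, while most genes of planar cell polarity and β-catenin signal transduction lie between the dotted lines.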

How the data were processed

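Gene expression in femoral cartilage of *Tric-b*-knockout E17.5 embryos was measured on 2 Affymetrix mouse genome arrays, 1 for the round section and 1 for the columnar and hypertrophic section, grouped by their labels. The authors deposited 1 linear intensity per probe set and array, made with MAS5 (version not given) according to the submitters' processing notes. For the heatmaps of the paper, robust multiarray analysis is named as the method, but its log values are not the ones used here. Trimmed means (2% cut at each end) were 497 and 496, and no further scaling was applied. Detection calls were not used here. The number of arrays limits the precision.

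Gene names came from the platform annotation. Of the 45037 probe sets, 34945 had 1 gene symbol, 932 had several and were left unnamed, and 9160 were unnamed here. Entrez identifiers of 34741 matched a RefSeq gene table, which changed 0 symbols. Log2 differences, the floor, bounds and the 2-fold rule are described with the results. The text names all members, the pathway list genes at least 2-fold different and the 3 nearest genes for *Wnt5a*, *Wnt5b* and *Wnt11*. Of the cell type markers it names some, the rest being given by counts and summed signals. Other list genes with smaller differences were added after their values were seen. The members and gene lists were chosen with earlier results of these data known.

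The alternatives were 3 other scalings (median centring, quantile, lowess), a floor at the 20th or at the 60th percentile or none, specific probe sets only, the mean over a gene's probe sets, and a 3-fold rule. The steps were tested on simulated data. Figures were drawn with matplotlib 3.10.9, lowess curves came from statsmodels 0.14.6, and all else was computed with pandas 2.3.3 and numpy 2.4.6 under Python 3.11.15.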

Additional observations from a re-analysis of the deposited data

How the results depend on the processing

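No paired analysis was possible because there was a single array per zone and hence no test. No member gene changed sign under any alternative, and *Wnt4*, *Wnt5a*, *Wnt11* and *Fzd1* kept a difference past 2-fold on the columnar side under each. *Wnt5b* did so too but has no value on specific probe sets. *Fzd2* ranged from -1.35 to -1.05 and *Ror1* from -1.54 to -0.70. Of 71 member gene values under alternatives, 5 moved by more than the pooled SD of 0.34, those of *Wnt5a* (3.21 and 2.75), *Wnt5b* (3.59) and *Ror1* (-0.70 and -0.83), at the 60th percentile floor or with the mean over probe sets.

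With a 3-fold rule, 7 member probe sets and 3 member genes were higher in the columnar zone, 1 probe set and 0 genes in the round zone, and 4 pathway genes in the round zone, all lower by the construction of a stricter rule. At a floor of the 60th percentile, 3 member probe sets and 1 member gene were higher in the round zone, and the mean over probe sets also gave 1 gene, since *Ror1* no longer reached 2-fold. At that floor 4.13% of all compared probe sets and 4.15% of genes were higher in the round zone. With the mean over probe sets, 5.43% of genes were. Without a floor, 9 pathway genes were higher in the columnar zone and 24 in the round zone, against 3 and 12. The shares of all compared genes rose too, to 10.7% and 13.9% without a floor, against 4.26% and 6.17%. Over all probe sets, 1047 and 1827 became 2369 and 3936 at a floor of the 20th percentile, 601 and 801 with it at the 60th, 5074 and 7128 without a floor, and 385 and 572 at 3-fold. The median of the other ligand genes turned from -0.44 to 0.03 when the floor was the 20th percentile or absent and to 0.07 at the 60th, and that of R-spondins and receptor turnover from 0.24 to -0.38 with the 20th percentile or no floor. The median of the member ligands moved from 2.71 to 2.23 with the 20th percentile, no floor or specific probe sets only. These settings also changed which genes entered the medians. The 9 compared member genes became 10 with the 20th percentile floor or none, and 8 on specific probe sets only. The 88 compared pathway genes became 107 at the 20th percentile, 116 without a floor and 74 at the 60th. Anything further behind the moved medians was not tested.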
